A study of Mus musculus with 12 samples.

Results

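Haploid EpiSC-2 was set against haploid EpiSC-1 by taking the arrays whose sample titles carry those names, which gave 3 arrays of each line, 6 of the 12 in the series. EpiSCs, or epiblast stem cells, are cultured pluripotent cells whose counterpart in the embryo is the post-implantation epiblast, and haploid cells carry 1 copy of each chromosome. Both haploid lines were of the mouse strain 129Sv and were grown in N2B27, a serum-free medium, with bFGF (basic fibroblast growth factor) and Activin A. Neither line carried a further allele or treatment in the labels. The other 6 arrays were of diploid EpiSC-1 and diploid EpiSC-2, lines of B6D2F1 mice grown in the same medium, with 3 arrays each. Their signals are given beside the haploid values as levels, and ploidy and strain cannot be told apart in them. Cells were taken up with trypsin, total RNA was isolated with Trizol, and biotin-labelled cRNA was hybridised to expression arrays. How the haploid lines were derived, how related they were, whether they were sorted, and what share of their cells was still haploid at harvest were not given in the sources used here. Replicates of a line were labelled as biological. Each state was represented by 1 line, so the p-values below rest on the spread among samples of the same line, and how far any other haploid line would vary was not measured.

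Epiblast stem cells are called primed because they keep the core pluripotency factors Oct4, Sox2 and Nanog while they depend on Activin or Nodal and on FGF in place of LIF. Otx2 and Fgf5 are their standard markers, and they stand close to gastrulation, at which Nodal and Wnt pattern the epiblast into primitive streak, definitive endoderm and the anterior mesendoderm that organises the head. Signalling by BMP, retinoic acid and posterior Hox genes marks other, more posterior or extra-embryonic fates.

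The MAS5 algorithm gives 1 signal for each probe set, scaled to the same trimmed mean on every array. Replicates of haploid EpiSC-1 correlated at 0.991, those of haploid EpiSC-2 at 0.990 to 0.992, and arrays of different haploid lines at 0.951 to 0.954 over the 11105 genes tested. Against the diploid arrays, haploid EpiSC-1 correlated at 0.856 to 0.883 and haploid EpiSC-2 at 0.899 to 0.909. The median signal of an array was 72.9 to 76.3 in haploid EpiSC-1, and haploid EpiSC-2 had 65.5 to 68.4. The 3′ to 5′ ratio of the actin control probe sets, a measure of RNA integrity, was 1.34 to 1.38 and 1.39 to 1.42, and that of Gapdh was 0.836 to 0.859 and 0.839 to 0.870.

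Differences are log2 of haploid EpiSC-2 minus haploid EpiSC-1, with the standard error of the limma fit and a Benjamini-Hochberg adjusted p. At an adjusted p under 0.05, 6288 of 11105 genes were called (56.6%), 2849 higher (25.7%) and 3439 lower (31%) in haploid EpiSC-2. Most of these differences were small, with a median absolute difference of 0.29 over all genes, against a median SD between replicates of 0.0867 in haploid EpiSC-1, and 0.0897 for haploid EpiSC-2. At least 2-fold apart were 237 genes that were higher (2.13%) and 523 that were lower (4.71%). In 756 of these 760 the 3 arrays of one line did not overlap the 3 of the other. With replicates so close, the 2-fold threshold nearly ensures this, so it is no further result. At least 4-fold apart were 39 higher and 41 lower genes, and at least 8-fold apart 16 higher and 3 lower. The higher side therefore held fewer genes but the larger differences. The split between higher and lower depended on how arrays were scaled. With each array centred on the median of all its probe sets, an alternative chosen after seeing the data, every difference rose by 0.16, and 4184 genes were higher and 2207 lower (65.5% against 45.3% higher). At least 2-fold apart the higher share was then 52% against 31.2%, and it was 42.9% with quantile normalization. Counts within the gene lists below stand beside these shares of all genes, 25.7% higher and 31% lower, and a share near them is no result about a list. The diploid lines, by the same rule, had 753 genes at least 2-fold apart (6.78%).

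**Figure D1:**
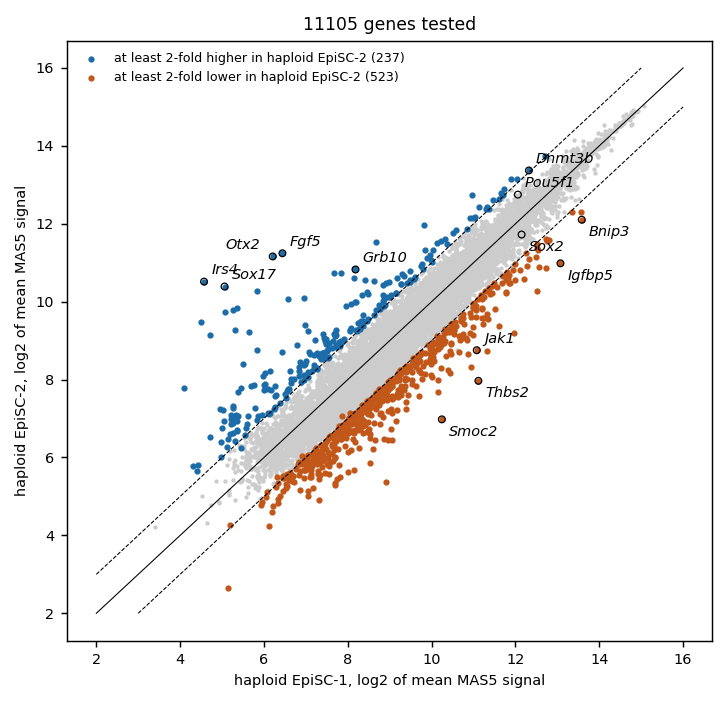
Each point is 1 of the 11105 genes tested, with the log2 of its mean MAS5 signal over 3 arrays in haploid EpiSC-1 on the horizontal and in haploid EpiSC-2 on the vertical axis. The solid line marks equal signals and the dashed lines a 2-fold difference. The points farthest from the solid line lie above it, at Irs4, Sox17, Otx2 and Fgf5, while Pou5f1 and Sox2 lie inside the dashed lines.

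The 2 standard markers of the primed state were among the 20 genes with the highest differences. Genes entered these 20, or the 20 lowest, only where the arrays of the haploid lines did not overlap. The higher line also needed a mean signal of at least 200. Otx2 encodes a homeodomain factor of the epiblast and the anterior embryo. Its signals were 81.5, 67.0 and 73.5 in haploid EpiSC-1 against 2280, 2355 and 2235 in haploid EpiSC-2. The groups were far apart, and haploid EpiSC-2 lay at the level of diploid EpiSC-2 (2133), below diploid EpiSC-1 (3962). The difference was 4.96 ± 0.07 (adjusted p = 1.40e-15, limma). Fgf5, the growth factor by which the primed epiblast is usually recognised, stood at 72.4, 64.4 and 124 against 2409, 2348 and 2516. Its groups did not overlap either, with diploid means of 3621 and 2332, and it differed by 4.86 ± 0.17 (adjusted p = 1.94e-11). Signals in haploid EpiSC-1 were close to 62.6, the level under which a gene was not tested, so the size of both folds rests on near-background values. With 64 added to each signal, Otx2 differed by 4.09 and Fgf5 by 4.06.

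The core of the pluripotency network was expressed in both haploid lines. Pou5f1, which encodes Oct4, had signals of 4278, 4250 and 4264 in haploid EpiSC-1 against 6083, 6951 and 7620 in haploid EpiSC-2, a difference of 0.69 ± 0.06 (adjusted p = 3.33e-07). Sox2, its partner, ran the other way, at 4558, 4573 and 4480 against 3324, 3323 and 3500, or -0.42 ± 0.06 (adjusted p = 1.42e-05). Nanog, the third core factor, had signals of 2133, 2165 and 2039 against 2963, 2791 and 3177, or 0.49 ± 0.05. The groups of none of these genes overlapped, and each difference was under 2-fold. Of the 17 core pluripotency genes on the array 16 were tested, and 13 were higher, 2 lower and 1 not called, with a median difference of 0.55 against -0.04 over all genes tested. Lin28a, which blocks maturation of let-7 microRNAs, was higher by 1.14 ± 0.06, at 2083, 1977 and 2249 against 4463, 4562 and 4838. Dppa2, a regulator of bivalent chromatin, was higher by 1.40 ± 0.08, and Zscan10, a zinc finger factor of the Oct4 network, by 1.06 ± 0.08. L1td1, an RNA-binding protein of pluripotent cells, was higher by 0.50.

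All 20 genes of the primed epiblast list were tested, and 14 were higher and 2 lower, 6 of the higher ones at least 2-fold (median 0.46). Dnmt3b, the de novo DNA methyltransferase of the implanting epiblast, was at 4987, 5238 and 5127 in haploid EpiSC-1 against 10776, 10720 and 10245 in haploid EpiSC-2. That is 1.05 ± 0.06 (adjusted p = 6.78e-09), with diploid means of 21772 and 14465, so both haploid lines lay under the diploid ones. Sox3, a SoxB1 factor of the epiblast and early neural plate, was higher by 1.20 ± 0.10, Fgf15 by 1.42 ± 0.13, and Pim2, a survival kinase, by 0.95 ± 0.06. Pou3f1, which encodes Oct6, differed by only 0.46 ± 0.06, at 2625, 2428 and 2583 against 3534, 3764 and 3235. It was at the level of the diploid lines (2356 and 4526) in both haploid lines, unlike Otx2 and Fgf5.

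Naive pluripotency genes moved less uniformly. Of 20 on the array 11 were tested, and 2 were higher and 7 lower (median -0.72). Over all members without the filter the median was -0.15, and 3 were called higher and 7 lower in haploid EpiSC-2. Of all 18193 genes on the array, 2777 were higher and 3475 lower in that setting. The lower members were led by components of LIF signalling, the pathway that sustains the naive state through Stat3. Stat3 itself had signals of 1949, 1983 and 2124 in haploid EpiSC-1 against 667, 613 and 678 in haploid EpiSC-2, or -1.63 ± 0.07 (adjusted p = 1.78e-10). Socs3, its feedback inhibitor, was at 2425, 2132 and 2797 against 689, 724 and 895, or -1.67 ± 0.11 (adjusted p = 1.43e-08). The kinase upstream of both, Jak1, was among the 20 lowest genes by the rule given above. Its signals were 2142, 2193 and 2148 against 438, 456 and 402, or -2.33 ± 0.07 (adjusted p = 3.95e-12, limma). In each of these genes all 3 arrays of haploid EpiSC-1 lay above all 3 of haploid EpiSC-2, and haploid EpiSC-2 was the nearer to the diploid lines, whose means for Stat3 were 444 and 478. Klf4, a naive factor that Stat3 is known to induce, was lower by 0.89 ± 0.17, from 428 to 232 in mean signal. Fgf4, an FGF of the inner cell mass, was higher by 0.90 ± 0.08, and Dppa5a, an RNA-binding protein of stem cells, by 0.82 ± 0.11. The defining naive genes Zfp42, Esrrb and Dppa3 were under the signal filter. Zfp42 was at 92.9, 81.8 and 88.5 in haploid EpiSC-1, and haploid EpiSC-2 had 102, 109 and 109. Esrrb was at 26.3, 85.2 and 44.5, with 36.2, 59.6 and 91.0 in the other line. Dppa3 was at 78.0, 58.7 and 77.2, with 30.2, 46.1 and 99.4. The arrays of Esrrb and Dppa3 overlapped, and those of Zfp42 did not. No probe set was paired with T, which encodes brachyury, alone.

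**Figure D2:**
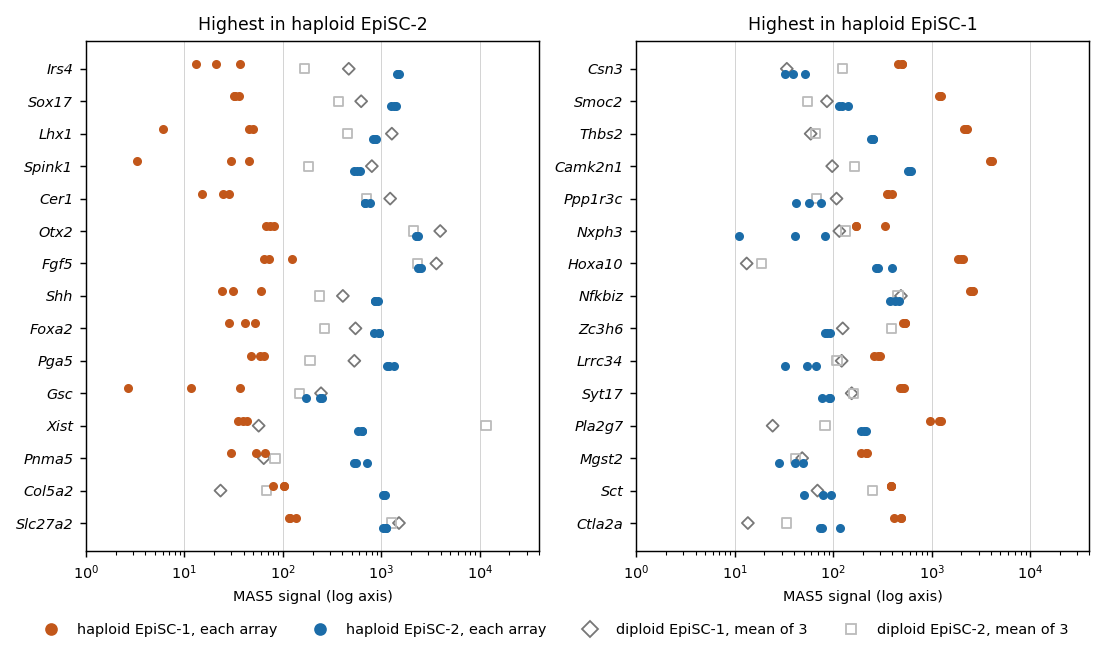
MAS5 signals on a log axis of the 15 genes with the highest (left) and the 15 with the lowest (right) log2 difference. They were taken from called genes without overlap and with a mean signal of at least 200 in the higher haploid line. Filled circles are the 3 arrays of each haploid line, and open symbols are the means of 3 arrays of each diploid line. On the left, Otx2 and Fgf5 of haploid EpiSC-2 sit with the diploid lines. On the right, haploid EpiSC-2 is the haploid line closer to them for most genes, such as Thbs2 and Nfkbiz.

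Genes of the anterior mesendoderm and the definitive endoderm held 8 of the 20 highest places, namely Sox17, Lhx1, Cer1, Otx2, Shh, Foxa2, Gsc and Mixl1. In mouse development these tissues arise from the anterior primitive streak under high Nodal signalling. All 11 tested genes of the definitive endoderm list, of 15 on the array, were higher in haploid EpiSC-2, 10 of them at least 2-fold, with a median difference of 2.15. Of 13 tested anterior mesendoderm and head organiser genes, of 16 on the array, 11 were higher, each at least 2-fold, and none was lower (median 2.46). Over all members without the filter the medians were 2.12 and 1.46, so the order of these lists depends on the filter. Both lists share Cer1, Foxa2, Gsc and Hhex, so their counts are not independent. The lists were also chosen with earlier results of these data known, so the counts describe these genes and are no independent support. Members were tested only where the mean over all 12 arrays passed a signal filter. The 4 endoderm members under it (Foxa3, Gata4, Hnf4a and Pyy) and the 3 organiser members under it (Nog, Foxj1 and Sfrp5) had mean signals of 16.3 to 74.9 in the haploid lines, with none far above background in either.

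Sox17, the SRY-box factor that specifies definitive endoderm, had signals of 32.0, 32.3 and 35.7 in haploid EpiSC-1 against 1413, 1360 and 1249 in haploid EpiSC-2, or 5.33 ± 0.10 (adjusted p = 1.53e-14). All 3 arrays of haploid EpiSC-1 lay under the filter level, and haploid EpiSC-2 lay above both diploid lines (624 and 371). Foxa2, the forkhead factor of endoderm, node and notochord, was at 52.2, 28.6 and 41.3 against 946, 954 and 845, or 4.53 ± 0.18 (adjusted p = 6.16e-11). Cer1, a secreted antagonist of Nodal, BMP and Wnt from the anterior endoderm, was at 15.1, 28.4 and 24.5 against 687, 683 and 764, or 5.02 ± 0.18 (adjusted p = 2.45e-11). The groups of both were separate, which their place among the highest genes required. Their diploid means were 546 and 266 for Foxa2 and 1229 and 712 for Cer1. Lhx1, a LIM homeodomain factor needed to form the head, was at 6.09, 49.2 and 45.6 against 821, 889 and 864, or 5.17 ± 0.53 (adjusted p = 1.31e-06). Replicate 1 of haploid EpiSC-1 was far under the other arrays, and without it the difference was 4.18. Shh, the hedgehog ligand of the axial mesendoderm, was at 31.0, 60.4 and 24.4 against 858, 921 and 853, or 4.62 ± 0.23. Gsc, the homeodomain factor of the organiser, was at 37.0, 11.6 and 2.67 against 172, 252 and 237, a difference of 4.38 ± 0.62 that was 5.28 without replicate 1 and 3.39 without replicate 3 of haploid EpiSC-1. For all of these genes the haploid EpiSC-1 arrays lay near background, and with 64 added to each signal the differences were 3.85 for Sox17, 3.23 for Foxa2, 3.16 for Cer1, 3.27 for Lhx1, 3.21 for Shh and 1.82 for Gsc. Signal from a small share of cells at a high level and from all cells at a lower level cannot be told apart in these bulk samples.

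Eomes, the T-box factor upstream of much of the endoderm programme, was at 278, 249 and 355 against 998, 1040 and 1001, or 1.80 ± 0.11 (adjusted p = 9.06e-09). Its groups did not overlap, and the diploid means lay between them (555 and 550). Foxa1, the relative of Foxa2, was higher by 1.93 ± 0.16, at 250, 248 and 248 against 939, 985 and 906, and here the diploid means (182 and 185) were nearer to haploid EpiSC-1. Fzd5, a Wnt receptor of the anterior endoderm, was higher by 2.46 ± 0.09, at 294, 291 and 267 against 1545, 1501 and 1645, and by 1.73 when its probe sets were averaged. Shisa2, an inhibitor of Fzd and FGF receptor maturation, was higher by 1.65 ± 0.14, and Gata6, an endoderm zinc finger factor, by 0.78 ± 0.12, a call that was not kept with the mean of its probe sets (0.09). Mixl1, the homeodomain factor of the streak, was higher by 2.999 ± 0.206, with 48.6, 39.6 and 82.7 against 446, 406 and 450. With 64 added it was 2.06.

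The promoters of genes that were near background in haploid EpiSC-1 and high in haploid EpiSC-2 are shown to place these differences on the genome. They are the 250 bases before the start of Otx2, Fgf5, Lhx1 and Cer1, from RefSeq on GRCm38.p6, each 5′ to 3′ along the gene's own strand. Otx2 lies on the minus strand, and of its 4 listed starts the most upstream is used (chr14:48667645-48667894). Fgf5 is on the plus strand (chr5:98253934-98254183), and Lhx1 (chr11:84525535-84525784) and Cer1 (chr4:82885152-82885401) are on the minus strand. Capitals mark matches, on either strand, to TAATCC (bound by Otx2 and Gsc), AATCCACA (Foxh1), TGTTTAC (forkhead factors), ATGCAAAT (the octamer bound by Oct4), CACCTG (an E-box) and TATAAA (the TATA box).
Otx2: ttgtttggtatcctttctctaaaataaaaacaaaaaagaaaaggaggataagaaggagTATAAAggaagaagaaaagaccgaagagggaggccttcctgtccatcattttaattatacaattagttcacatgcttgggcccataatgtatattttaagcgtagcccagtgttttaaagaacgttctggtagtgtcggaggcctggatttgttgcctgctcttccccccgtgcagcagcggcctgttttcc
Fgf5: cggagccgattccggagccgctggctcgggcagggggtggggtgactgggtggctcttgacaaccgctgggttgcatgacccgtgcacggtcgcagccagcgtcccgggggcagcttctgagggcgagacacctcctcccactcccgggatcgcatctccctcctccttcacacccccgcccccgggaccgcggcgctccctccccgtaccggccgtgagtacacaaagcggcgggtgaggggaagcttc
Lhx1: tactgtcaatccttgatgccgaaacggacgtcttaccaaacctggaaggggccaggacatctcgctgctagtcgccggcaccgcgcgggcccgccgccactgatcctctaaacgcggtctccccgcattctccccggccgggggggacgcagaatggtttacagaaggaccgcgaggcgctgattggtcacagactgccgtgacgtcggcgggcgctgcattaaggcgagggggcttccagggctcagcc
Cer1: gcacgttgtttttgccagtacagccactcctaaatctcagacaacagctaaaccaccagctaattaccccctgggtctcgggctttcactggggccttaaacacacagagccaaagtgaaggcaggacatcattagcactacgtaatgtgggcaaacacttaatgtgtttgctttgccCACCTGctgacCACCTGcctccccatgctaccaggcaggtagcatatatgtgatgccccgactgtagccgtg
The Cer1 window held CACCTG 2 times, at -72 to -67 and -61 to -56 from the start, and the Otx2 window held TATAAA 1 time, at -192 to -187. No other motif was matched in these windows. Of all 32851 promoter windows of that length, 17.2% held CACCTG, 12.4% TATAAA, 6.25% TAATCC, 3.17% TGTTTAC, 1.6% ATGCAAAT and 0.718% AATCCACA. The windows differed in base composition. Fgf5 was 70.8% G or C with 24 CpG dinucleotides and Lhx1 64.8% with 26, while Otx2 was 42% with 6 and Cer1 51.6% with 5, against medians of 52.4% and 6 over all windows.

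Activin A in the medium acts through the Nodal receptors and Smad2 and Smad3, and Nodal itself is a ligand of the epiblast. The ligand, receptor and Smad genes differed little between the haploid lines. Of 14 tested, of 16 on the array, 5 were higher and 5 lower (median 0.04). Nodal was at 1580, 1656 and 1737 against 2409, 2447 and 2283, or 0.52 ± 0.06 (adjusted p = 3.47e-06). Foxh1, the DNA-binding partner of Smad2, was higher by 0.54 ± 0.08, and the co-receptor Tdgf1 was lower by 0.30 (-0.30 ± 0.04), at 7923, 8251 and 7904 against 6404, 6460 and 6717. Cfc1, the other co-receptor of this family, was the exception in size at 2.91 ± 0.14, with 52.0, 43.4 and 40.8 against 359, 372 and 290 and diploid means of 359 and 241, and 1.88 with 64 added. The type I receptor Acvr1b (-0.71) and Smad3 (-0.53) were lower, but neither call was kept with the mean of all probe sets (-0.43 and -0.28). Among the 15 targets and antagonists, all tested, 10 were higher, 8 of them at least 2-fold, and 3 were lower (median 1.33). Cer1, Gsc, Foxa2, Eomes, Mixl1, Lhx1 and Chrd are also in the endoderm or organiser list, and Fgf8 is in the streak list below. These counts are therefore not independent of those lists. Fst, the antagonist that binds Activin, was at 211, 220 and 177 against 1676, 1689 and 1715, or 3.07 ± 0.11 (adjusted p = 2.51e-11), above the diploid means of 577 and 484.

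Primitive streak and mesoderm genes were higher in 8 of 12 tested and lower in 1, of 21 on the array (median 0.85, and 0.60 over all members without the filter). Nkx1-2, a factor of the caudal epiblast, was higher by 0.81 ± 0.12, and Dll3, a Notch ligand of presomitic mesoderm, by 0.90 ± 0.10. In the FGF list 11 of 25 tested genes were higher and 5 lower, of 27 on the array (median 0.16). Fgf8, a ligand of the streak, was at 620, 643 and 671 against 1623, 1611 and 1635, or 1.33 ± 0.06 (adjusted p = 1.51e-10). Dusp6, the ERK phosphatase that reports on FGF signalling, differed by 0.51 ± 0.04, at 4876, 4991 and 5139 against 7288, 6941 and 7068. Ier3, an immediate early gene, went the other way by -1.64 ± 0.05, at 4659, 4730 and 4862 against 1549, 1554 and 1464.

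Of 22 tested Wnt genes, of 27 on the array, 9 were higher and 5 lower (median 0.33), the latter not above the 31% of all genes that were lower. Sp5, a direct target of β-catenin, was at 81.1, 96.5 and 82.2 against 417, 439 and 408, or 2.29 ± 0.15 (adjusted p = 1.58e-08), with diploid EpiSC-1 (112) near the first and diploid EpiSC-2 (470) near the second. With 64 added to each signal the difference was 1.69. Lgr5, a receptor for R-spondins, was higher by 1.26 ± 0.18, and so were the secreted Wnt antagonists Frzb (1.27 ± 0.22) and Sfrp1 (0.60 ± 0.09). Porcn, the acyltransferase that Wnt ligands need to be secreted, was lower (-1.26 ± 0.19), at 450, 404 and 387 against 171, 144 and 207. In the Notch list 6 of 13 tested genes were higher and 3 lower, of 18 on the array. Its median of -0.03 turned positive (0.13) with arrays centred on all probe sets. Hes1, a repressor induced by Notch, was higher by 0.98 ± 0.06, and Nrarp, a feedback target, by 0.80 ± 0.15. Rbpj, the DNA-binding partner of Notch, was lower (-0.69 ± 0.05).

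Genes of BMP signalling, which acts in extra-embryonic and posterior tissues, were mostly lower. Of 19 tested genes of the list, of 23 on the array, 2 were higher and 12 lower, 5 of the lower ones at least 2-fold (median -0.56). The Id genes are the standard immediate targets of BMP. Id2 was at 1891, 2230 and 1961 in haploid EpiSC-1 against 527, 599 and 573 in haploid EpiSC-2, or -1.84 ± 0.09 (adjusted p = 1.12e-09). Id3 was at 3651, 3596 and 3610 against 1484, 1532 and 1597, or -1.24 ± 0.07, and Id1 at 2614, 2586 and 2527 against 1365, 1313 and 1476, or -0.90 ± 0.07. All 3 were separate between the lines. Diploid means of Id1 and Id3 were under both haploid lines (323 and 480 for Id1), while Id2 was at 452 and 1844. Smad6, the inhibitory Smad that BMP induces, was lower (-0.70 ± 0.12), as was Grem1, a secreted BMP antagonist (-1.97 ± 0.25), at 241, 265 and 158 against 51.2, 66.0 and 50.1, a difference of -1.23 with 64 added. The receptor Bmpr2 differed by -0.35 ± 0.04.

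Of the tested retinoic acid genes, 5 were lower in haploid EpiSC-2 and 2 higher. Crabp2, which carries retinoic acid to its nuclear receptor, was at 2497, 2166 and 2558 against 705, 616 and 756, or -1.80 ± 0.10 (adjusted p = 3.37e-09). Dhrs3, a retinal reductase that lowers the supply of retinoic acid, was lower (-1.38 ± 0.21), as were the retinol dehydrogenase Rdh10 (-0.74 ± 0.08), the carrier Crabp1 (-0.67 ± 0.08) and the retinol-binding protein Rbp4 (-0.87 ± 0.14). Cyp26a1, the enzyme that degrades retinoic acid in the early embryo, was at 325, 355 and 342 against 1563, 1558 and 1426, or 2.15 ± 0.08 (adjusted p = 2.35e-11). Its groups did not overlap, and diploid EpiSC-2 (310) lay with haploid EpiSC-1 and diploid EpiSC-1 (978) between the lines. In all, 11 of 17 genes were tested, with a median of -0.46, and of -0.66 over all members without the filter. The other higher gene was the receptor gene Rxrg (1.48), chosen after its value was seen, and the other 4 tested receptor genes did not pass the test.

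Hox genes, which encode position along the body axis, were higher in haploid EpiSC-1. Only 10 of 33 on the array were tested, and 7 of these were lower in haploid EpiSC-2, 5 at least 2-fold, and none was higher (median -1.38). Hoxa10 was at 1866, 2066 and 1971 in haploid EpiSC-1 against 395, 286 and 273 in haploid EpiSC-2, or -2.65 ± 0.66 (adjusted p = 0.00328). The haploid groups did not overlap, which its place among the lowest genes required. The error pools the spread within all 4 lines, and the diploid means were 13.2 and 18.7. Hoxd13, among the most posterior members, was at 635, 717 and 661 against 154, 198 and 107, or -2.18 ± 0.30 (adjusted p = 2.62e-05). Hoxd9 was at 1179, 1204 and 1119 against 471, 460 and 446, or -1.35 ± 0.18, and Hoxa11 at 392, 418 and 383 against 123, 112 and 117, or -1.76 ± 0.43. These 3 were separate between the lines, and in each haploid EpiSC-2 lay between haploid EpiSC-1 and the diploid means, which were under 50. Hoxb3 was lower (-0.72 ± 0.22), and so was Hoxa5 (-0.84 ± 0.20), at -1.59 when its probe sets were averaged. Hoxa5, Hoxa10 and Hoxa11 lie on chromosome 6, whose genes as a whole were shifted downward, as given below. Hoxd9 and Hoxd13 lie on chromosome 2 and Hoxb3 on 11. Hoxb9, the remaining called member, was chosen after its values were seen, with means of 683 and 259. Its call was lost with each other scaling of the arrays (adjusted p = 0.0556 to 0.0595, limma), which left 6 members lower. It was also lost without the filter, with the mean of probe sets, without the trend and with any 1 array left out, at adjusted p up to 0.111, while the difference stayed between -1.25 and -1.48 in these.

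The signal filter took the mean over all 12 arrays, so Hox genes high in haploid EpiSC-1 alone could fall under it. Over all 33 on the array, 24 had the 3 signals of haploid EpiSC-2 below the 3 of haploid EpiSC-1, and 3 the reverse. Of all 18193 genes on the array, 26.3% had haploid EpiSC-2 wholly below, and the share with the reverse was not counted. Among those under the filter, chosen after their values were seen, Hoxd10 had means of 1135 and 266 and Hoxc8 of 574 and 123. Without the filter 11 Hox genes were called lower and 1 higher, beside 3475 lower and 2777 higher of all 18193 genes. Summed over the 33 genes, the signal of an array was 12358 to 12795 in haploid EpiSC-1, 4283 to 4443 in haploid EpiSC-2 and 741 to 885 over the diploid arrays.

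**Figure D3:**
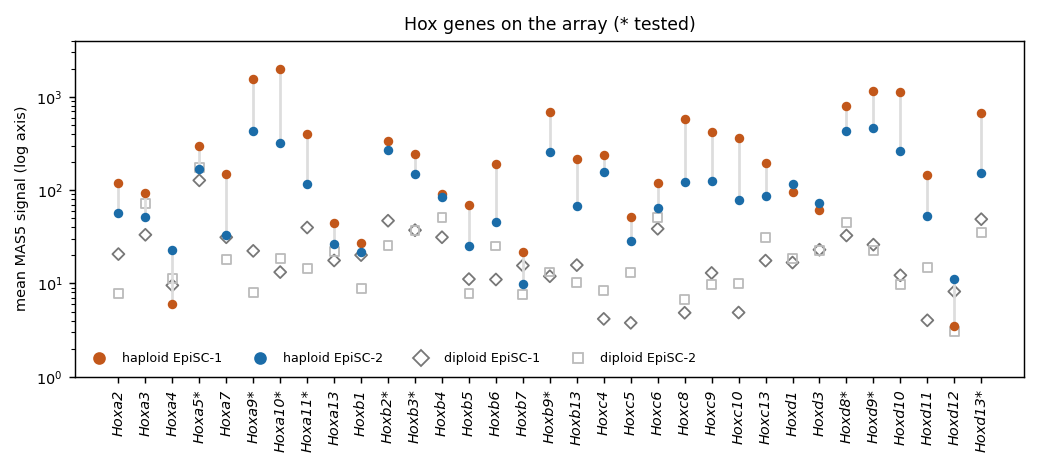
Mean MAS5 signal of 3 arrays on a log axis for the 33 Hox genes on the array, ordered by cluster and number, in the 4 lines. A grey bar joins the haploid lines, and an asterisk marks the 10 genes tested. Haploid EpiSC-1 lies above haploid EpiSC-2 for most genes, with the highest signal at Hoxa10 (1968), and the diploid lines mostly lie lowest.

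The gene with the largest difference of all belongs to insulin signalling. Irs4, an adaptor of the insulin and IGF-1 receptors on the X chromosome, was at 37.0, 13.2 and 21.0 in haploid EpiSC-1 against 1496, 1470 and 1427 in haploid EpiSC-2, or 6.07 ± 0.26 (adjusted p = 1.50e-10). Haploid EpiSC-2 lay above both diploid lines (467 and 165). Its size rests on near-background signals, and it was 4.13 with 64 added and 4.05 with the mean of its probe sets. Grb10, an imprinted adaptor that inhibits these receptors, was at 276, 295 and 302 against 1836, 1780 and 1834, or 2.64 ± 0.05 (adjusted p = 1.53e-14), and 1.37 with the mean of its probe sets. Both haploid lines were under the diploid means of 9191 and 7930. Igfbp5, a secreted IGF-binding protein, was at 8225, 8497 and 9159 against 2119, 1980 and 1983, or -2.09 ± 0.09 (adjusted p = 2.75e-10), and -1.43 with the mean of its probe sets. Its diploid means were 163 and 85.3, so the line with less of it was still above the diploid lines. Igfbp4 was lower by 1.36 (-1.36 ± 0.08) and the ligand Igf2 was at 2199, 2031 and 2162 against 693, 829 and 831, or -1.45 ± 0.09. Igfbp3 was higher by 0.51 ± 0.04. Of 19 tested genes of this list, of 20 on the array, 7 were higher and 8 lower, with a median of -0.12 that was 0.04 with arrays centred on all probe sets.

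Imprinted genes, expressed from 1 parental allele, differed in both directions in each parental class. Of 18 tested paternally expressed genes, of 24 on the array, 9 were higher and 7 lower (median -0.02), and of 18 tested maternally expressed ones, of 24, 6 were higher and 4 lower (median -0.06). Both medians turned positive with arrays centred on all probe sets (0.14 and 0.10). Mest was at 4040, 4302 and 4210 against 9250, 8918 and 8936, or 1.11 ± 0.07 (adjusted p = 7.22e-09), and Zdbf2 was higher by 0.97 ± 0.08. Sgce, a sarcoglycan gene, was lower (-1.15 ± 0.08) and so was Plagl1, a growth-regulating zinc finger gene (-0.89 ± 0.05), from a mean of 11736 to 6337. Among the maternally expressed genes, Grb10 (above) and Calcr, the calcitonin receptor gene (1.90 ± 0.18, and 1.22 with 64 added), were higher. Cd81, a tetraspanin gene, was at 10560, 10422 and 10326 against 4847, 5052 and 5183, or -1.05 ± 0.04. Which allele was expressed was not measured.

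Extracellular matrix genes included some of the lowest of all. Thbs2, a thrombospondin, was at 2263, 2250 and 2148 in haploid EpiSC-1 against 256, 254 and 242 in haploid EpiSC-2, or -3.15 ± 0.15 (adjusted p = 6.42e-10). Smoc2, a SPARC-related matricellular protein, was at 1188, 1231 and 1220 against 115, 122 and 142, or -3.27 ± 0.22 (adjusted p = 2.06e-08). Both were separate, which their place among the lowest genes required, and both diploid lines were under 100 for each. Fbln2, a basement membrane fibulin, was lower (-1.96 ± 0.19), and Col14a1, a fibril-associated collagen gene, was at 504, 530 and 543 against 110, 113 and 93.6 (-2.32 ± 0.22). Fn1, which encodes fibronectin, was lower by less (-0.79 ± 0.06), at 11133, 10514 and 11086 against 6034, 6383 and 6511. Col5a2, a fibrillar collagen gene, was the opposite, at 103, 80.2 and 103 against 1042, 1065 and 1097, or 3.50 ± 0.18 (adjusted p = 9.66e-10), and high in haploid EpiSC-2 alone (diploid means 23.3 and 68.3). With 64 added it was 2.83. Its partner chain Col5a1 was lower (-0.84 ± 0.13). Of 19 tested collagen genes, of 23, 2 were higher and 8 lower (median -0.33, and -0.16 over all members without the filter), and of 24 tested matrix glycoprotein genes, of 32, 4 were higher and 9 lower (median -0.14, and 0.01 with arrays centred on all probe sets).

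Markers of fibroblast feeder cells were expressed in both haploid lines. Of 19 on the array 18 were tested, and 3 were higher and 7 lower, with a median of -0.27 and with Thbs2 and Col5a2 among them. Their summed signal was 37975 to 38716 over the arrays of haploid EpiSC-1 and 39662 to 40312 in haploid EpiSC-2, against 2554 to 2695 and 6664 to 6900 in the diploid lines. Acta2, smooth muscle actin, was higher in haploid EpiSC-2 by 0.87 ± 0.04, at 7160, 7278 and 6863 against 13132, 12935 and 12825, and Tagln, an actin-binding protein, by 0.51 ± 0.09. Timp1, a metalloproteinase inhibitor, was lower (-0.83 ± 0.07). Whether these signals came from the EpiSCs or from other cells, and their part in the matrix differences, was not tested. The 10 epiblast stem cell markers were all tested, 8 higher and 2 lower, with summed signals of 33012 to 33246 in haploid EpiSC-1, 48272 to 49911 in haploid EpiSC-2, and 58712 to 75052 over the diploid arrays. None of 9 endothelial and blood markers and 2 of 9 leukocyte markers passed the filter, and Ptprc, the leukocyte common antigen, was at means of 10.8 and 5.13. Leukocyte markers summed to 348 to 368 and 237 to 267. Of the muscle markers 5 of 10 were tested (1 higher, 2 lower), and of the neuron markers 8 of 10 (2 higher, 3 lower).

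Mesenchymal genes were lower in 8 of 14 tested and higher in 1, of 19 on the array, with no member 2-fold apart (median -0.18, and -0.02 with arrays centred on all probe sets). Zeb1, a repressor of E-cadherin, was lower (-0.84 ± 0.10), as were Snai2, a relative of Snail (-0.56 ± 0.10), and Mmp14, a membrane-bound metalloproteinase (-0.93 ± 0.08). Cdh1, E-cadherin itself, was at 3618, 3921 and 3489 against 5828, 5671 and 6328, or 0.69 ± 0.06 (adjusted p = 1.18e-07), and Esrp1, an epithelial splicing regulator, was higher by 1.17 ± 0.06. Both were below the diploid means in both haploid lines (10919 and 15340 for Cdh1). Other epithelial genes were lower, namely the keratins Krt8 (-0.71 ± 0.04), Krt18 (-0.44 ± 0.04) and Krt19 (-0.92 ± 0.07) and the protease St14 (-1.54 ± 0.09). The list therefore split, with 8 of 26 tested genes higher and 10 lower, of 30 on the array (median -0.01, and 0.15 with arrays centred on all probe sets).

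Genes of glycolysis and of the response to low oxygen were lower in haploid EpiSC-2 in 22 of 27 tested, of 28 on the array, and higher in 2, with 9 lower at least 2-fold and a median of -0.47. The HIF factors induce many of these genes when oxygen is scarce. Bnip3, a mitochondrial protein of mitophagy, was at 12281, 12240 and 12290 in haploid EpiSC-1 against 4579, 4348 and 4287 in haploid EpiSC-2, or -1.48 ± 0.04 (adjusted p = 1.25e-12). Ndrg1, a stress-response gene, was at 1706, 1712 and 1676 against 523, 534 and 545, or -1.67 ± 0.05 (adjusted p = 9.68e-12). Egln3, a prolyl hydroxylase that marks HIF for destruction and is itself induced by it, was at 1602, 1673 and 1665 against 500, 507 and 560, or -1.66 ± 0.08. The arrays of each line agreed closely in all 3 genes and the lines were far apart. The diploid means were mixed, nearer to haploid EpiSC-2 for Bnip3 (4562 and 4949) and spread between the lines for Ndrg1 (812 and 1378). P4ha2, a collagen prolyl hydroxylase (-1.71 ± 0.09), and Ero1a, an oxidase of the endoplasmic reticulum (-1.22 ± 0.04), were lower too. The glycolytic enzyme gene Aldoc was lower by 1.64 (-1.64 ± 0.06) on its brightest probe set, but not called on the average of its sets (-0.66, adjusted p = 0.169).

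No respiratory chain gene was 2-fold apart, and of 32 tested 15 were higher and 5 lower (median 0.09). These counts depended on the scaling, at 9 and 9 with quantile normalization and 25 and 1 with arrays centred on all probe sets. The members with the lowest p were Uqcrfs1, the Rieske iron-sulphur subunit of complex III (0.86 ± 0.04), Sdha of complex II (0.71 ± 0.04, not called with the mean of its probe sets, 0.35) and Ndufs4 of complex I (0.70 ± 0.05). All 3 lie on chromosome 13, whose genes as a whole were shifted upward, as given below. Cholesterol synthesis genes were higher in 13 of 21 tested and lower in 5 (median 0.21). Idi1, isopentenyl diphosphate isomerase, was at 3586, 4150 and 3617 against 8611, 8701 and 10107, or 1.27 ± 0.07 (adjusted p = 1.74e-09), and Nsdhl, a sterol dehydrogenase, was higher by 0.96 ± 0.05. Idi1 lies on chromosome 13 and Nsdhl on X, and Lss, lanosterol synthase (0.75 ± 0.07), lies on chromosome 10. The part of the chromosome shifts in the differences of these 2 lists, or of any other list, was not tested. Insig2, which holds back sterol synthesis, was lower (-0.70 ± 0.05).

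Genes of amino acid supply and the ATF4 response were higher in 16 of 29 tested and lower in 7, of 30 on the array (median 0.24). Slc7a1, the cationic amino acid transporter, was at 1535, 1365 and 1497 against 3563, 3516 and 3389, or 1.25 ± 0.06 (adjusted p = 3.04e-10). Slc7a3, its relative on X, was higher by 0.91 ± 0.06. The serine synthesis enzymes Phgdh (0.55 ± 0.04) and Psat1 (0.46 ± 0.04) and the mitochondrial Shmt2 (0.50 ± 0.05) were also higher. Of 23 tested cytosolic ribosomal protein genes, of 25 on the array, 6 were higher and none lower (median 0.07). The number higher depended on the scaling, at 4 with quantile normalization (median -0.00), 11 with arrays centred on medians and 20 with arrays centred on all probe sets (median 0.23).

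Most cell cycle genes differed by less than 2-fold. All 33 genes of G1/S and DNA replication were tested, 19 higher and 6 lower (median 0.19), with 1 of each at least 2-fold apart. Cdk6, a kinase that drives cells out of G1, was at 886, 893 and 958 against 2623, 2345 and 2681, or 1.48 ± 0.06 (adjusted p = 1.69e-10). The inhibitors Cdkn2b, at 3121, 3092 and 2823 against 1220, 1345 and 1432 (-1.18 ± 0.12), and Cdkn1b (-0.67 ± 0.06) were lower. Cdk4 was higher by 0.42 ± 0.04. All 31 genes of G2/M were tested too, with 4 higher and 15 lower and none 2-fold apart. Their median of -0.15 was 0.01 with arrays centred on all probe sets, and 9 were then higher and 5 lower, so the direction of this list depends on the scaling. Aurkb, the kinase of the chromosomal passenger complex, was at -0.45 ± 0.05, and -0.29 at the smallest over the alternatives.

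Of 25 tested p53 targets, of 26 on the array, 2 were higher and 10 lower (median -0.20). With arrays centred on all probe sets the median was -0.05, and 4 were higher and 9 lower. Gadd45a, a growth arrest gene on chromosome 6, was at 2997, 2915 and 2916 against 879, 928 and 898, or -1.71 ± 0.06 (adjusted p = 1.61e-11), and Ddit4, an inhibitor of mTORC1, was lower (-1.13 ± 0.07). Trp53inp1, a regulator of autophagy, was lower as well (-1.04 ± 0.12). Aen, an apoptosis-enhancing nuclease, was higher by 0.75 ± 0.08. Interferon response and antigen presentation genes were lower in 13 of 24 tested and higher in 4, of 27 on the array (median -0.27). B2m, the light chain of MHC class I, was at 7536, 8480 and 8465 against 5315, 5004 and 4370, or -0.74 ± 0.07 (adjusted p = 3.63e-07). Ifitm1, an interferon-induced membrane protein, was lower by 1.34 (-1.34 ± 0.15), whereas the immunoproteasome subunit Psmb10 was higher by 0.95 ± 0.06.

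In the DNA methylation list, of 14 tested of 15, 6 were higher and 4 lower (median 0.11), and 2 were at least 2-fold higher, against 2.13% of all genes. Besides Dnmt3b, Tet2, a 5-methylcytosine oxidase, stood at 708, 662 and 638 against 346, 359 and 345, or -0.93 ± 0.10 (adjusted p = 2.27e-06). Mbd3, a subunit of the NuRD complex, was higher by 0.55 ± 0.09. All 24 Polycomb and Trithorax genes were tested, 6 higher and 5 lower (median 0.05), with Jarid2, a cofactor of PRC2, higher by 0.50 ± 0.06 and Ezh1, its alternative methyltransferase, lower (-0.81 ± 0.12).

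Lists for other fates had few tested members. Of 16 trophoblast genes 8 were tested, 2 higher and 6 lower (median -0.75). Tfap2c, an AP-2 factor of trophoblast and germ cells, was at 647, 555 and 577 against 196, 237 and 362, or -1.21 ± 0.23 (adjusted p = 3.82e-04). Plac1, a placental gene on X, was lower (-0.78 ± 0.15) and the keratin gene Krt7 higher (1.73 ± 0.24, and 1.09 with 64 added). Of 15 germline genes 5 were tested, 3 higher and 1 lower (median 1.01, and 0.34 over all members without the filter). Kit, the stem cell factor receptor, was higher by 1.44 ± 0.18, Rnf17, a tudor-domain gene, by 1.94 ± 0.28, and Prdm1, which specifies germ cells, by 1.01 ± 0.20. With 64 added Rnf17 differed by 1.002. Of 20 neuroectoderm genes 9 were tested, 3 higher and 1 lower (median 0.04). Nes, the intermediate filament of neural progenitors, was higher by 0.58 ± 0.13 and Fabp7, a fatty acid carrier of radial glia, by 1.05 ± 0.14. Olig1 was called lower at signals of 31.9, 41.8 and 31.4 against 4.85, 1.53 and 12.6, all under the filter level, while the diploid means were 2206 and 1710, so neither haploid line had signal above the filter level. The value for Olig1 was -2.94 ± 0.49, and -2.15 without replicate 2 and -3.67 without replicate 3 of haploid EpiSC-2, and -0.50 with 64 added. Primitive and visceral endoderm genes were higher in 2 of 10 tested and lower in 4, of 19 on the array, with none 2-fold apart (median 0.15). With arrays centred on all probe sets 4 were higher and 2 lower.

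Outside the lists, the genes highest in haploid EpiSC-2 included Spink1, a secreted trypsin inhibitor, at 45.5, 29.7 and 3.31 against 567, 613 and 533, or 5.11 ± 0.64. Replicate 3 of haploid EpiSC-1 was lowest, and without it the difference was 3.96, and 5.85 without replicate 1. With 64 added it was 2.84. Pga5, a pepsinogen gene, was at 64.9, 47.0 and 58.8 against 1209, 1140 and 1336, or 4.44 ± 0.14 (adjusted p = 9.68e-12), and 3.42 with 64 added. Slc27a2, a fatty acid transporter and acyl-CoA synthetase, was at 118, 117 and 137 against 1119, 1104 and 1031, or 3.13 ± 0.08 (adjusted p = 6.18e-13), and close to the diploid means of 1510 and 1270. Car4, a membrane carbonic anhydrase, was higher by 2.88 ± 0.10, and Pnma5, a paraneoplastic antigen family gene, by 3.66 ± 0.30, or 2.55 with 64 added. Ldah, a lipid droplet hydrolase, was higher by 2.92 ± 0.12 on its brightest probe set and by 1.19 on the average of all of them.

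On the other side, Csn3, which encodes kappa-casein, was at 452, 500 and 498 in haploid EpiSC-1 against 51.5, 39.4 and 32.3 in haploid EpiSC-2, or -3.58 ± 0.23 (adjusted p = 1.00e-08), and -2.38 with 64 added. Camk2n1, an inhibitor of CaM kinase II, was at 4057, 3874 and 4031 against 575, 613 and 587, or -2.75 ± 0.12 (adjusted p = 1.35e-10). Nfkbiz, an atypical IκB protein induced by inflammatory signals, was at 2574, 2660 and 2438 against 377, 463 and 426, or -2.60 ± 0.11, and -1.85 with the mean of its probe sets. All 3 genes were separate between the lines, which their place among the lowest genes required. Haploid EpiSC-2 lay beside the diploid means for Nfkbiz (488 and 456). Ppp1r3c, a glycogen-targeting subunit of protein phosphatase 1, was lower (-2.71 ± 0.20), as were Pla2g7, a phospholipase that inactivates platelet-activating factor (-2.46 ± 0.20), and Ripk3, the kinase of necroptosis (-2.40 ± 0.34). With 64 added Ppp1r3c was at -1.84 and Ripk3 at -1.50. Sfn, the 14-3-3 sigma protein of epithelia, was at 224, 171 and 230 against 25.5, 49.7 and 47.1 (-2.40 ± 0.22), and its diploid means were 189 and 966, so here haploid EpiSC-1 was the nearer. With 64 added Sfn was at -1.38.

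**Figure D4:**
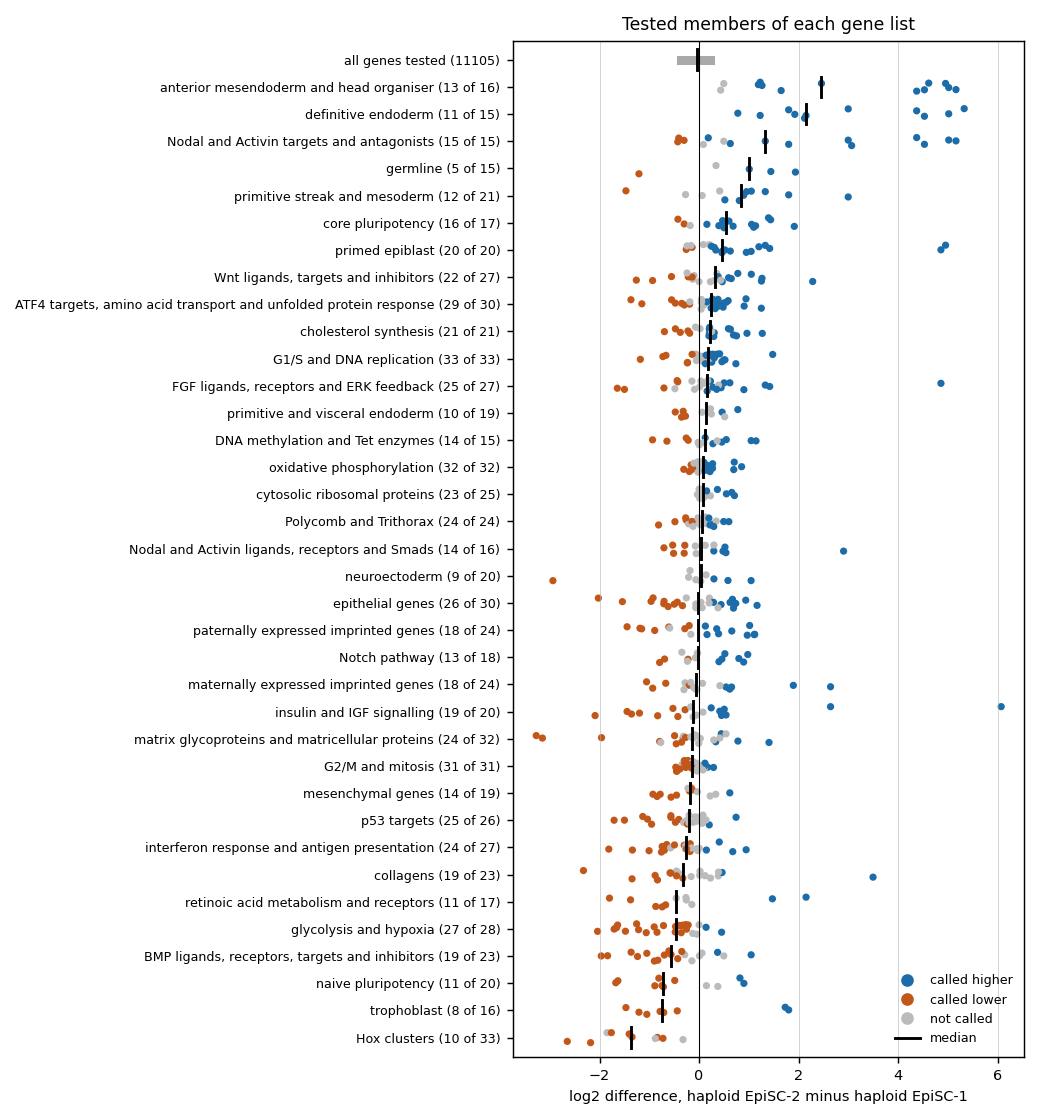
Each point is a tested member of 1 of 36 gene lists, placed by its log2 difference (haploid EpiSC-2 minus haploid EpiSC-1) and coloured by call, with the list median as a black bar and tested and on-array counts in brackets. The top row shows the median and the middle 50% of all 11105 genes. Anterior mesendoderm (median 2.46) and definitive endoderm (2.15) lie farthest to the right among tested members and Hox clusters (-1.38) farthest to the left. The lists were chosen with earlier results of these data known.

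Differences were also uneven along the genome. Genes of chromosome 13 had a median difference of 0.41, with 243 of 391 higher and 20 lower, and those of X a median of 0.25, with 193 of 378 higher and 54 lower. Genes of chromosome 6 had a median of -0.31 (59 of 542 higher, 294 lower) and those of chromosome 19 of -0.25 (57 of 386 higher, 194 lower). With arrays centred on all probe sets these medians were 0.57 for 13, 0.41 for X, -0.15 for 6 and -0.09 for 19. The other 16 chromosomes lay between -0.10 and 0.03. When the genes of a chromosome were put in order and divided into 4 equal runs, chromosome 13 was raised throughout (0.39, 0.35, 0.47 and 0.40) and chromosome 6 lowered throughout (-0.28, -0.35, -0.27 and -0.33). X was raised in every run as well (0.17, 0.39, 0.27 and 0.19). Chromosome 19 was uneven, with medians of -0.05, 0.03, -0.51 and -0.46 along its length. Against the mean of the diploid lines, chromosome 13 was at -0.48 for haploid EpiSC-1 and at -0.07 for haploid EpiSC-2, chromosome 6 at 0.31 and 0.01, chromosome 19 at 0.24 and 0.04, and X at 0.16 and 0.38. DNA copy number was not measured, and its part in these shifts was not tested.

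**Figure D5:**
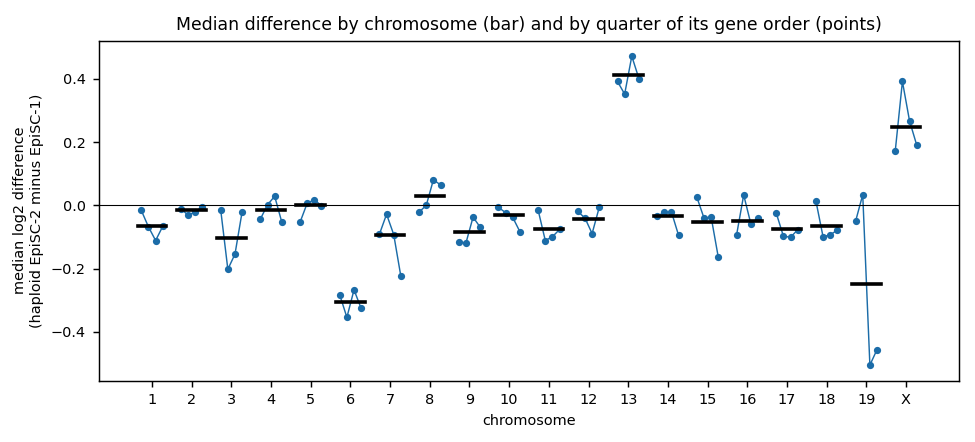
Median log2 difference (haploid EpiSC-2 minus haploid EpiSC-1) of the tested genes of each chromosome (black bar) and of 4 equal runs of its gene order (points, joined). Chromosomes 13 and X lie above and chromosome 6 below the rest over their whole length, and chromosome 19 drops to -0.51 and -0.46 in its last 2 runs.

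Genes were named on each of these chromosomes by their p alone, and not all of them differed in the direction of the chromosome's median. On 13, Emb, an immunoglobulin-family adhesion protein, was at 915, 916 and 869 against 4005, 4007 and 3958, or 2.15 ± 0.04 (adjusted p = 1.53e-14), and Eef1e1, a component of the tRNA synthetase complex, was higher by 1.14 ± 0.04. On X, Amot, an angiomotin of Hippo signalling, was higher by 1.78 ± 0.05 (0.77 when its probe sets were averaged) and Bex2, a small brain-expressed protein, by 1.27 ± 0.04. Xist, the RNA that coats an inactive X, was at 43.4, 39.6 and 35.3 in haploid EpiSC-1 against 637, 581 and 632 in haploid EpiSC-2, or 3.97 ± 0.12 (adjusted p = 4.45e-12), and 2.72 with 64 added. Diploid EpiSC-1 was at 56.8 and diploid EpiSC-2 at 11558, so haploid EpiSC-2 was above haploid EpiSC-1 and far below the diploid line that expresses Xist. On 6, the circadian repressor gene Bhlhe40 was lower (-1.39 ± 0.05), as was Kdm3a, a histone demethylase induced by low oxygen (-1.04 ± 0.05). On 19, Cep55, a protein of the last step of cell division, was at 5845, 6108 and 5889 against 2662, 2579 and 2521 (-1.20 ± 0.05), while Pga5 (4.44) and Cyp26a1 (2.15), both given above, were higher.

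Set beside the diploid lines, haploid EpiSC-2 was the nearer of the haploid lines for most of the genes that set them apart. Of the 237 genes at least 2-fold higher in haploid EpiSC-2, it was nearer to the mean of the diploid lines in 160 (67.5%), and of the 523 lower ones in 365 (69.8%), against 6778 (61%) of all genes tested. Among the genes that were higher 60, and among those that were lower 128, had this position: haploid EpiSC-2 lay within 0.5 of the diploid range and haploid EpiSC-1 more than 2-fold outside it. The reverse held for 19 higher and 49 lower genes. In 80 of the lower genes both haploid lines lay over 2-fold outside the diploid range, and in 73 of these haploid EpiSC-1 was highest, haploid EpiSC-2 next and the diploid lines lowest, the order seen for Hoxa10, Igfbp5 and Thbs2. The diploid lines were of another strain, and the counts describe levels only.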

How the data were processed

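The deposited series table holds 1 intensity value per probe set and array, the MAS5 signal on a linear scale, which the authors made with MAS5 per the submitters' processing notes. Arrays were Affymetrix mouse 430 2.0 per the labels. The scaling target and detection calls were not given in the sources used here, and no detection call was used. Of 45101 probe sets, 34945 had 1 gene symbol in the platform annotation, and the brightest probe set over all arrays stood for each of 18193 genes. Signals were taken to log2 with no pseudocount, and 11105 genes with a mean log2 of at least 5.97 (a signal of 62.6) were tested with limma 3.58.1 in R 4.3.3 (lmFit and trended eBayes over all 4 lines, Benjamini-Hochberg adjustment over all genes tested, threshold 0.05). No sample was left out. An exact permutation test of 3 against 3 arrays cannot go below 0.1, so none is given. The fit was tested on simulated data. Of 897 entries in 36 gene lists, 821 matched a gene. The 6 marker lists are not in these counts. The members, lists and tests were chosen with earlier results of these data known. Named genes were the 20 highest and 20 lowest called genes without overlap and with a mean signal of at least 200 in the higher line, up to 6 tested members of each list by lowest p, a few pluripotency markers and Xist, and 3 genes on each of the 4 most shifted chromosomes. Promoter windows are RefSeq's on GRCm38.p6, a build used only for them. Alternatives covered scaling, pseudocount, signal filter, probe set rule, model, replicate block and leaving out each array.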

Additional observations from a re-analysis of the deposited data

How the results depend on the processing

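The count of genes called between the haploid lines was 6288, and it lay within 1.5 times that number under every alternative run, at 5689 to 5844 with 1 array left out. The count at least 2-fold apart (760) was 748 to 788 with 1 array left out, but 416 with 64 added to each signal, 1157 without the signal filter and 408 with the stricter filter. The first shrinks differences of low signals, and the others change which genes are tested. The diploid count (6196) was 5590 to 5789 with 1 array left out. Replicate numbers did not pair the haploid samples, since deviations of same-numbered haploid arrays correlated at -0.010, -0.011 and -0.047. Same-numbered diploid arrays correlated at 0.012, 0.065 and 0.027, and diploid arrays of different numbers at -0.042 to 0.013. With the replicate number as a block, 6309 genes were called, 762 of them at least 2-fold apart, and 6202 between the diploid lines. Of 235 called genes that the naming rule chose, 36 lost the call in 1 or more alternatives, 29 of them in only 1. With the mean of all probe sets 4 changed sign, Rspo3 (0.96 to -0.31), Pola1 (0.74 to -0.069), Cbx7 (0.60 to -0.12) and Kif23 (-0.45 to 0.025). Among the other genes with values in the report, Gata6, Smad3, Acvr1b, Aldoc and Sdha lost the call with the mean of all probe sets. Hoxb9 lost it as given above. None of these changed sign. The cause was not tested. Signals near background limit the size of the named differences, and 3 arrays of 1 line each limit what the p-values cover.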
